A study of Mus musculus with 4 samples.

Results

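The genes described here are 10 markers and regulators of the bone and cartilage lineages, read in embryonic fibroblasts with and without SmcHD1. They were chosen by symbol: the transcription factor genes Runx2, Sp7, Dlx5, Dlx6 and Sox9, and the genes of 5 matrix products or matrix enzymes, Ibsp, Spp1, Alpl, Comp and Acan. All 10 were present among the 22691 genes of the table. SmcHD1 is an SMC-related chromatin protein that accumulates on the inactive X chromosome, and the study asked what it contributes to keeping that chromosome silent.

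Polyadenylated RNA was sequenced from fibroblasts of female fetuses at E13.5. The WT group comprised 2 libraries with the genotype Smchd1 +/+; Xist deltaA/+, and the MD1 group 2 libraries with Smchd1 MD1/MD1; Xist deltaA/+. MD1 is a loss-of-function allele of Smchd1, present throughout the animal, and the Xist deltaA allele on the maternal X was shared by both groups. Mothers were C57BL6/J and fathers were JF1 x C57BL6/J F1 males, so JF1 segments of the autosomes segregate among the fetuses. Whether the groups differed in JF1 segments around the genes described here cannot be told apart from the Smchd1 genotype. No label says how many fetuses gave each library.

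Total expression was given as FPKM (fragments per kilobase of transcript, scaled to the number of mapped fragments), with 1 mean per group from the authors and no value per library. No spread, standard error or p-value can therefore be attached to any FPKM here, a single library could carry a difference, and higher or lower refers to these group means. Ratios are log2 of (FPKM + 1) in MD1 over WT, which understates the change of low genes. A gene was counted as measured at a mean FPKM of 1 or more over the groups and a value above 0 in both, which held for 11399 genes. Each library had 521768 to 806626 reads assigned to an allele, all of them at X-linked genes. None of the 10 genes lies on the X chromosome and none had allele-specific reads. The depth behind the FPKM values is unknown. Smchd1 itself had 14.7 FPKM in WT and 1.94 FPKM in MD1.

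Osteoblasts and chondrocytes arise from shared mesenchymal progenitors. Runx2 commits cells to the osteoblast lineage and acts before Sp7 (osterix), Dlx5 and Dlx6 are homeodomain factors that promote bone formation downstream of BMP signals, and Sox9 directs cartilage formation. Their products include the mineral-binding sialoproteins of bone, the alkaline phosphatase that clears the mineralization inhibitor pyrophosphate, and the aggregating proteoglycan and pentameric glycoprotein of cartilage. Cultures of embryonic fibroblasts come from whole fetal tissue and can hold such progenitors.

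The regulators Runx2 and Sox9 were higher in MD1, while Sp7, Dlx5, Dlx6 and all 5 matrix genes were lower. Of the 10 genes, 8 had a lower FPKM in MD1, and 6 of them were at least 2-fold lower in FPKM without a pseudocount. Over all genes above 0 in both groups, 52.5% were lower and 11.4% were at least 2-fold lower in that measure. The largest difference was at Ibsp, from 14.7 to 0.0172 FPKM, and the smallest among the lower genes were at Acan and Spp1, which stood at 59.8% and 55.6% of their WT level.

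The promoter windows of 4 genes are shown as a description, and no result here depends on them. Ibsp and Spp1 are neighbours with unlike ratios, Acan is the cartilage matrix gene with the smaller difference, and Runx2 encodes a factor that was higher in MD1. Whether the sequences bear on the ratios was not tested. Sequences are from RefSeq (GRCm38.p6), 250 bases before to 50 after a gene start, 5′ to 3′ on the gene's strand. Windows were found for 5 of the 10 genes (Ibsp, Spp1, Alpl, Acan and Runx2), 7 windows in all, since Alpl and Spp1 each have a second start. Capitals mark the RUNX-type letters TGTGGT (reverse complement ACCACA) and the CCAAT box letters CCAAT (reverse complement ATTGG), searched on both strands. The windows are Ibsp at chr5:104299037-104299336 (plus strand), Spp1 at chr5:104434861-104435160 (plus), Acan at chr7:79052976-79053275 (plus) and Runx2 at chr17:44814578-44814877 (minus).
Ibsp: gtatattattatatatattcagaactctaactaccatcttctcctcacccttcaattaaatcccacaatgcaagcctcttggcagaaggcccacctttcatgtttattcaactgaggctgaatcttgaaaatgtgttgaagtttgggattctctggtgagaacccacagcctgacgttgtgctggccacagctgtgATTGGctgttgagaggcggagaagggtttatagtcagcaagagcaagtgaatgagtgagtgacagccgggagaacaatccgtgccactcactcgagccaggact
Spp1: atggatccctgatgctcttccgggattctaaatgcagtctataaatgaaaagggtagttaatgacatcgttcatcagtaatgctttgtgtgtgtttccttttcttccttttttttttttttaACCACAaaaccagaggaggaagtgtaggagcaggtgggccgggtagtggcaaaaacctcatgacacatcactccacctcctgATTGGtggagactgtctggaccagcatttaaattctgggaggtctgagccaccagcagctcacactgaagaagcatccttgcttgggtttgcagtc
Acan: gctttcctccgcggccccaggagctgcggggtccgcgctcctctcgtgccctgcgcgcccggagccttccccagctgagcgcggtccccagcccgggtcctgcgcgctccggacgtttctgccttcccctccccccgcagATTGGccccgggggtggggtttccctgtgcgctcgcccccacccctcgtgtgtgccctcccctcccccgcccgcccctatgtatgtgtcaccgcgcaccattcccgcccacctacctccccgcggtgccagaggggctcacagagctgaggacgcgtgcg
Runx2: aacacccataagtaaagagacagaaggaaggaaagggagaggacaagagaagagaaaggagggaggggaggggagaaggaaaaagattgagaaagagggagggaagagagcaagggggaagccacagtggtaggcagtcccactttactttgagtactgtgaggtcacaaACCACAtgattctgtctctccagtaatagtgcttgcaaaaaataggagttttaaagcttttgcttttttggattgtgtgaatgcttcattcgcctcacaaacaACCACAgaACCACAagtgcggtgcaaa

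The Ibsp and Spp1 windows each held 1 CCAAT box match, at 54 and 46 bases before the start, in like surroundings (tgATTGG in both). The Spp1 window shown held 1 RUNX-type match, 128 bases before the start, the Ibsp window 0 and the Runx2 window 3. The window of the second Spp1 start, not shown, held 0 RUNX-type and 0 CCAAT matches. Ibsp and Spp1 had 46.3% and 45.3% G and C, and Acan 74.0%. Of 32851 promoter windows of the same length in the table, 16.8% held a RUNX-type match and 37.4% a CCAAT match, and the marked letters overlapped nowhere in the windows shown. These matches describe the letters in the windows. They show no binding, and the FPKM values do not tell which start was used.

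**Figure D1:**
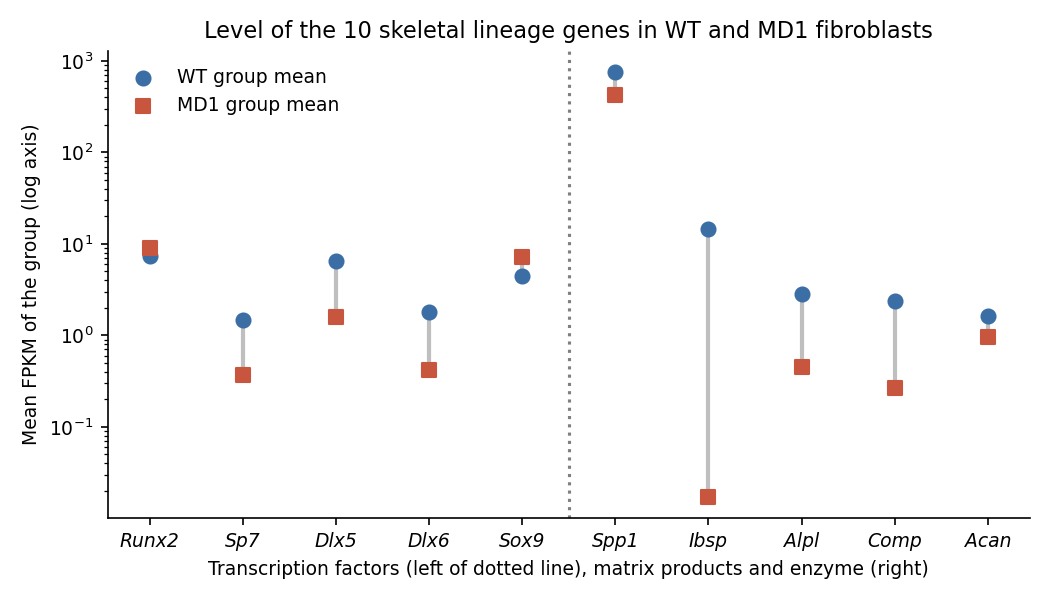
Mean FPKM of each gene in WT (circles) and MD1 (squares) on a log axis, with transcription factors left of the dotted line and matrix genes right of it; each symbol is the authors' mean of 2 libraries and has no error bar. Runx2 and Sox9 are the 2 genes with the square above the circle, and the widest gap is at Ibsp, from 14.7 to 0.0172 FPKM.

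Among the transcription factors, Runx2 (chromosome 17, 44632936 to 44951746, mm9, minus strand) had 7.35 FPKM in WT and 9.03 FPKM in MD1, a log2 ratio of 0.26. Sp7 (chromosome 15, 102187608 to 102196702, minus strand), the zinc finger factor required for osteoblast maturation after Runx2, had 1.46 FPKM in WT and 0.372 FPKM in MD1, or 25.5% of the WT level. The pair thus went in opposite directions, and Sp7 stood at 19.9% of the Runx2 level in WT and 4.12% in MD1. Sp7 had a mean of 0.916 FPKM, just under the minimum for a measured gene. Its log2 ratio of -0.84 therefore stands outside the counts of measured genes.

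Dlx5 (chromosome 6, 6827801 to 6832068, minus strand) had 6.47 FPKM in WT and 1.58 FPKM in MD1, a log2 ratio of -1.54. Its paralogue and neighbour Dlx6 (chromosome 6, 6813334 to 6817970, plus strand), whose span ends 9.83 kb away, had 1.81 FPKM in WT and 0.417 FPKM in MD1, a log2 ratio of -0.99. In FPKM without a pseudocount both stood at a similar part of WT, 24.4% for Dlx5 and 23.0% for Dlx6. Dlx6 stood at 28.0% of the Dlx5 level in WT and 26.4% in MD1. The genes face each other on opposite strands and form a pair that shares enhancers in the embryo.

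Sox9 (chromosome 11, 112643524 to 112649071, plus strand), the regulator of chondrocyte fate, had 4.41 FPKM in WT and 7.10 FPKM in MD1. Its log2 ratio of 0.58 was the highest of the members, with 93.9% of measured genes below it. The ratio of Runx2 had 80.1% of measured genes below it. Neither was 2-fold higher.

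Among the matrix genes, Ibsp (chromosome 5, 104728306 to 104740491, plus strand), which encodes the bone sialoprotein of mineralizing bone, had 14.7 FPKM in WT and 0.0172 FPKM in MD1. The MD1 level was 0.117% of WT, and the log2 ratio of -3.95 was the 12th lowest of the 11399 measured genes. By level Ibsp ranked 5036th of the 22691 genes in WT and 15998th in MD1. Because 14.7 FPKM is a mean over 2 libraries, it may rest on either WT library or on both.

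Spp1 (chromosome 5, 104864130 to 104870072, plus strand) encodes osteopontin, a sialoprotein of the same family that many cell types outside bone also secrete. It had 757.6 FPKM in WT and 421.2 FPKM in MD1, a log2 ratio of -0.85, and ranked 60th by level in WT and 109th in MD1. Spp1 made up 97.2% of the summed FPKM of the 5 matrix genes in WT and 99.6% in MD1. The other 4 together had 21.5 FPKM in WT and 1.70 FPKM in MD1, while the 5 transcription factors together had 21.5 and 18.5 FPKM. Ibsp stood at 1.94% of the Spp1 level in WT and 0.00409% in MD1, although the spans of these genes lie 123.6 kb apart.

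Alpl (chromosome 4, 137297646 to 137352299, minus strand), the tissue-nonspecific alkaline phosphatase, had 2.84 FPKM in WT and 0.453 FPKM in MD1, a log2 ratio of -1.40. Comp (chromosome 8, 72897447 to 72905965, plus strand), the cartilage oligomeric matrix protein, had 2.35 FPKM in WT and 0.264 FPKM in MD1, a log2 ratio of -1.41. Both MD1 levels were a small part of WT, 15.9% for Alpl and 11.2% for Comp. Acan (chromosome 7, 86198369 to 86259985, plus strand) encodes aggrecan, the main proteoglycan of cartilage, and had 1.61 FPKM in WT and 0.962 FPKM in MD1, a log2 ratio of -0.41. Relative to Sox9, Comp stood at 53.4% in WT and 3.72% in MD1, and Acan at 36.5% and 13.55%.

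By level per transcript length, the order in WT was Spp1, Ibsp, Runx2, Dlx5, Sox9, Alpl, Comp, Dlx6, Acan and Sp7. In MD1 it was Spp1, Runx2, Sox9, Dlx5, Acan, Alpl, Dlx6, Sp7, Comp and Ibsp. Ibsp thus went from the second highest place to the lowest. Without values per library, no neighbours in either order can be said to differ beyond their spread.

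Set side by side by role, the 5 matrix genes had log2 ratios of -3.95 to -0.41 with a median of -1.40. The 4 measured transcription factors had ratios of -1.54 to 0.58 with a median of -0.36, 2 of them lower and 2 higher. The difference of the medians was -1.04 on the log2 scale. The factors split into Runx2 and Sox9 on the one hand and Dlx5 and Dlx6 on the other. Their median lies between these pairs, at a value that no factor had. Genes are not replicates, so this difference has no test. With a minimum mean of 5 FPKM, which leaves Runx2 and Sox9 as the factors counted, their median was 0.42. In FPKM without a pseudocount, Sp7, Dlx5 and Dlx6 stood at 23.0% to 25.5% of WT, within the 0.117% to 59.8% span of the matrix genes.

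Over the 9 measured members the median log2 ratio was -0.99, against 0.0058 over all measured genes. Of the 9, 4 (Ibsp, Dlx5, Comp and Alpl) were at least 2-fold lower on the log2(FPKM + 1) scale and 0 were at least 2-fold higher. Of all measured genes 2.81% were at least 2-fold lower and 1.39% at least 2-fold higher. Among the 5018 measured genes with a mean of 1 to 10 FPKM, where each measured member but Spp1 falls, the shares were 3.65% and 1.83%. Of the measured members 5 had an MD1 level under 1 FPKM and passed the minimum through their WT level, so these counts and the median are descriptions that lend no support to a change of the list. Dlx6 lay just short of 2-fold on this scale and at 4.35-fold in plain FPKM.

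**Figure D2:**
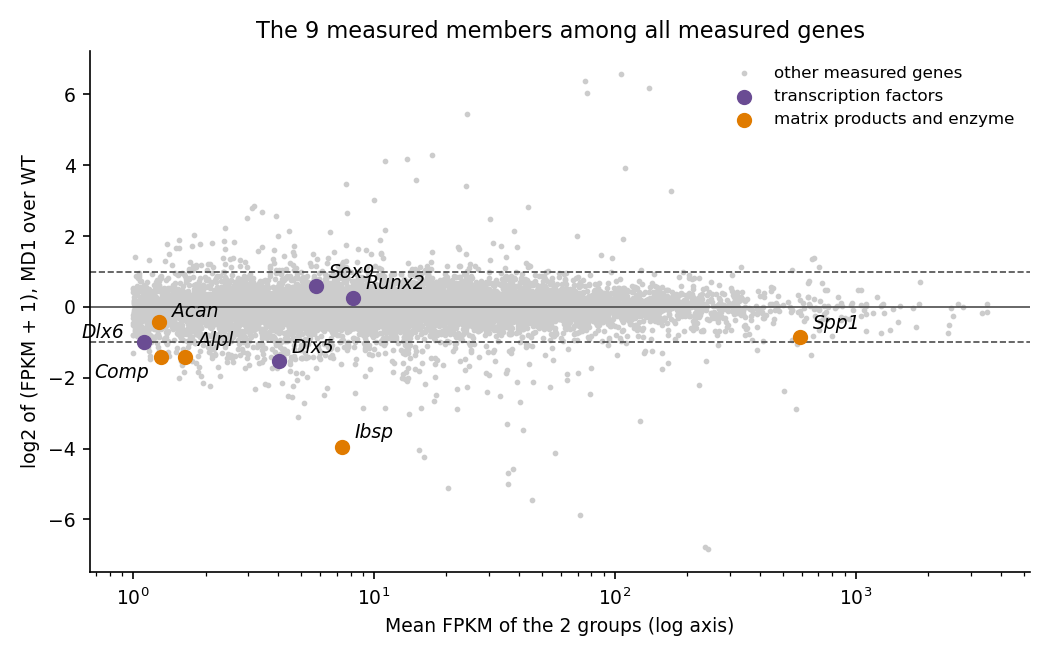
Log2 ratio of (FPKM + 1) in MD1 over WT against the mean FPKM of the groups (log axis) for 11399 measured genes (grey), with the 9 measured members coloured by role and dashed lines at 2-fold. Ibsp lies near the lower edge at -3.95, Dlx5, Comp and Alpl lie below the lower dashed line, and Runx2 and Sox9 lie above 0.

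The measured genes next to the members differed less between the groups, on the log2(FPKM + 1) scale, than Ibsp, Dlx5, Comp and Alpl did. Ibsp itself had no measured neighbour outside the members. The nearest 2 genes on each side of each member gave 34 genes that are not members, of which 19 were measured. Their log2 ratios ran from -0.67 to 0.35 with a median of -0.12, 13 were lower, and 0 were at least 2-fold different in either direction. The shares over all measured genes were 2.81% lower and 1.39% higher, so 0 of 19 does not set the neighbours apart. Among neighbours under the minimum, Clic5 near Runx2 had 1.22 FPKM in WT and 0.262 in MD1, and Tac1 near Dlx5 0.499954 and 0.116. Gdf1, Hapln3 and 1700012H19Rik, also under it, were higher in MD1. Whether the differences are confined to the members was not tested. Ibsp and Spp1 sit in the cluster of SIBLING genes, which encode acidic phosphoproteins of bone and tooth. In that cluster Dspp and Mepe were listed at 0 in both groups and Dmp1, a marker of osteocytes, had 0.0663 FPKM in WT and 0.0140 FPKM in MD1. Beyond Spp1, the polycystin gene Pkd2 had 25.1 FPKM in WT and 23.2 FPKM in MD1. Next to Dlx5, Acn9 had 9.88 and 6.18 FPKM, and beyond Dlx6 Shfm1 had 420.4 and 386.4 FPKM.

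Beside Sp7, Sp1 had 13.6 and 14.6 FPKM, Aaas 41.0 and 39.0 FPKM and Myg1 14.9 and 19.2 FPKM in WT and MD1. Around Alpl, the endothelin-converting enzyme gene Ece1 had 44.8 and 33.6 FPKM and Rap1gap 2.95 and 2.59 FPKM. Around Comp, Upf1 had 24.0 and 27.1 FPKM and Crtc1 3.52 and 2.996 FPKM. At Acan and Runx2 a neighbour differed by more than the member on the log2(FPKM + 1) scale. Mfge8, at 257.2 and 173.2 FPKM, had a log2 ratio of -0.57 beside -0.41 for Acan. Without a pseudocount the ratio of Acan was -0.74, so the order of these genes depends on the pseudocount. Enpp4, next but one to Runx2, had 3.88 FPKM in WT and 2.06 FPKM in MD1, a log2 ratio of -0.67 beside 0.26 for Runx2.

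Members with overlapping spans need care. The span of Supt3 overlaps that of Runx2 by 37627 bases on the opposite strand, and Supt3 had 7.56 FPKM in WT and 9.34 FPKM in MD1, a log2 ratio of 0.27 beside 0.26 for Runx2. Dlx6 is overlapped on the opposite strand by Dlx6os1, which had 0.229 FPKM in WT and 0.0299 FPKM in MD1, and by Dlx6os2, listed at 0 in both groups. The libraries were made with a stranded kit, but whether the counting used the strand is not given in the sources used here. If it did not, reads of such pairs cannot be told apart where their exons overlap.

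**Figure D3:**
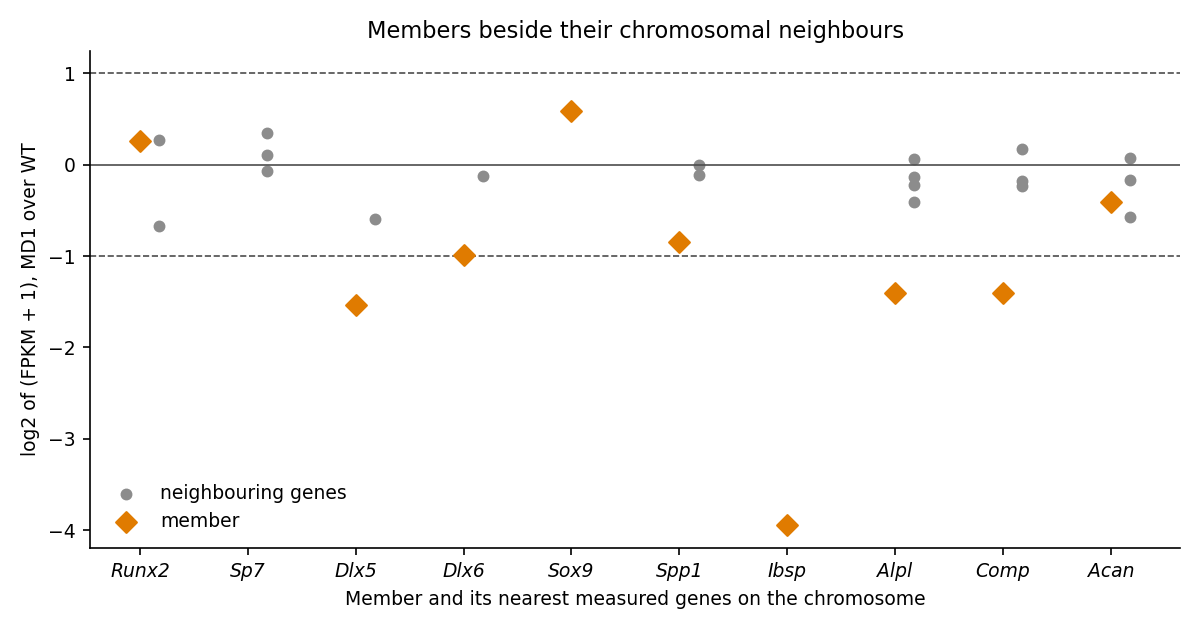
Log2 ratio of (FPKM + 1) in MD1 over WT for each measured member (diamonds) and for those of its nearest 2 genes on each side that were measured and are not members (grey points), with dashed lines at 2-fold. The neighbours lie between -0.67 and 0.35, while Ibsp, Dlx5, Comp and Alpl lie below -1; Sp7 has no diamond, since it was not measured, and Ibsp and Sox9 have no measured neighbour outside the members.

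The wider osteoblast regulators lay on both sides of 0. Of 22 further transcription factor genes of that lineage, 19 were measured, 12 lower and 7 higher, with a median log2 ratio of -0.029. At least 2-fold lower was Dlx1, from 2.04 to 0.293 FPKM, and 0 were at least 2-fold higher. The most abundant were Atf4, which drives amino acid import and late osteoblast genes (223.5 FPKM in WT and 185.4 in MD1), and Prrx1, a factor of limb and craniofacial mesenchyme (70.7 and 69.2). Dlx2, chosen after its values were seen because it pairs with Dlx1 as Dlx6 pairs with Dlx5, had 9.45 and 9.21 FPKM.

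Of 11 further cartilage factors 8 were measured, and 7 were lower with a median of -0.37, none of them 2-fold on the log2(FPKM + 1) scale. In plain FPKM 1 was at least 2-fold lower, Mef2c, which had 2.72 FPKM in WT and 1.07 in MD1. Foxc1 had 20.7 FPKM in WT and 13.4 in MD1, and Zfp219, a partner of Sox9, 13.0 and 9.79. Sox9 thus stood apart in direction from 7 of the 8 cartilage factors.

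Other bone matrix and mineralization genes were measured for 13 of 24, with 8 lower, 5 higher and a median of -0.64, which was -0.041 with a minimum of 5 FPKM. Mgp, the matrix Gla protein that inhibits calcification, had 846.3 FPKM in WT and 162.0 in MD1. Omd (osteomodulin), a small proteoglycan of bone, had 2.49 and 0.327 FPKM, and Smpd3, a sphingomyelinase needed for mineralization, 3.57 and 0.679 FPKM. These 3 were the ones at least 2-fold different. The most abundant, Col1a1 and Sparc, had 1688 and 1590 FPKM in WT and 1081 and 956.8 FPKM in MD1. The late osteoblast and osteocyte genes were close to absent in both groups: Bglap (osteocalcin) had 0.111 FPKM in WT and 0.0185 in MD1, and Sost 0.0583 and 0.0240.

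Every measured gene of the wider cartilage matrix list was lower in MD1, 14 of 14, with a median of -0.68. At least 2-fold lower were 6 on the log2(FPKM + 1) scale and 8 in plain FPKM. Of all measured genes 49.2% were lower by any amount. Of the 26 genes of the list in the table, 12 were too low to be counted. Col11a2, Col9a3 and Matn3 had MD1 levels under 1 FPKM and passed the minimum through their WT level. The counts and the median of this list are therefore descriptions that lend no support to a change of the list. Col10a1, the collagen of hypertrophic cartilage, had 16.6 FPKM in WT and 1.43 FPKM in MD1. Col11a1 and Col11a2, fibrillar collagens of cartilage, stood at 29.8% and 16.9% of WT. Prg4 (lubricin, of joint surfaces) stood at 24.5%, Hapln1, which links aggrecan to hyaluronan, at 34.0%, and the small proteoglycan Fmod at 42.8%. Col2a1, the main cartilage collagen and a direct Sox9 target, was the most abundant with 133.2 FPKM in WT and 83.9 FPKM in MD1.

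Signals upstream of the lineage were mixed. All 6 measured genes of the BMP ligand list were lower (median -0.49), beside 49.2% of all measured genes. The list includes Bmp1, a procollagen protease and not a ligand, at 83.3 FPKM in WT and 74.6 in MD1. Bmp4, an inducer of bone and cartilage, had 48.1 and 11.97 FPKM. Bmp2 (1.22 to 0.785 FPKM) and Bmp6 (1.86 to 0.668) passed the minimum through their WT level. The count and median therefore lend no support to a change of the list. The 9 measured receptor and Smad genes had 3 lower and 6 higher (median 0.13), none 2-fold different, with Bmpr1a at 31.3 and 27.5 FPKM and Acvr1 at 27.5 and 29.3. Of the antagonist genes, Grem1 had 160.2 FPKM in WT and 89.6 in MD1 and Fst 51.2 and 54.9. The 4 BMP target genes had a median of 0.17, with Id1 at 98.7 and 121.8 FPKM and Id3 at 212.2 and 270.7. Lower levels in the ligand list stood beside target genes of which 3 of 4 were slightly higher, and a link between them was not tested.

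In the Wnt list 9 of 12 measured genes were lower (median -0.64). The list mixes ligands, co-receptors and secreted inhibitors such as the Sfrp genes, so its median does not measure Wnt signalling. On the log2(FPKM + 1) scale 3 were at least 2-fold lower: Dkk3 (20.2 to 6.15 FPKM), Sfrp1 (18.5 to 8.31) and Dkk2 (19.5 to 8.82). In plain FPKM 6 were at least 2-fold lower, the others being Axin2 (1.61 to 0.558), Wnt10b (3.63 to 1.56) and Sfrp2 (8.75 to 3.91). Wnt5a had 35.4 and 39.3 FPKM and the co-receptor gene Lrp5 17.7 and 19.3. Among 6 measured hedgehog and PTHrP genes, Hhip, a hedgehog-binding antagonist, had 2.92 and 0.255 FPKM, Smo 24.4 and 29.3, and Gli3 9.27 and 9.22. Among 6 measured FGF genes, Fgf18, a growth factor of bone and cartilage, had 3.42 and 0.933 FPKM. Fgf7 had 17.9 and 60.6, and Fgfr1 42.3 and 67.2.

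Receptors that bind osteopontin or bone sialoprotein had 9 measured genes, 5 lower and 4 higher, with a median of -0.032. The alpha subunit genes Itga4 (11.3 to 1.19 FPKM) and Itga8 (7.80 to 2.22) were at least 2-fold lower. The most abundant, Itgb1 and Cd44, had 959.8 and 153.9 FPKM in WT and 785.02 and 272.3 in MD1. Of 8 measured genes for proteases or an inhibitor acting on aggrecan and Comp, 7 were lower (median -0.61). Adamts12, which cleaves Comp, had 19.1 and 7.57 FPKM, while the collagenase gene Mmp13, a product of hypertrophic chondrocytes and osteoblasts, was 2.31-fold higher at 13.7 and 31.6 FPKM. Adamts1 had 53.2 and 29.1 FPKM and the inhibitor gene Timp3 247.1 and 177.5.

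**Figure D4:**
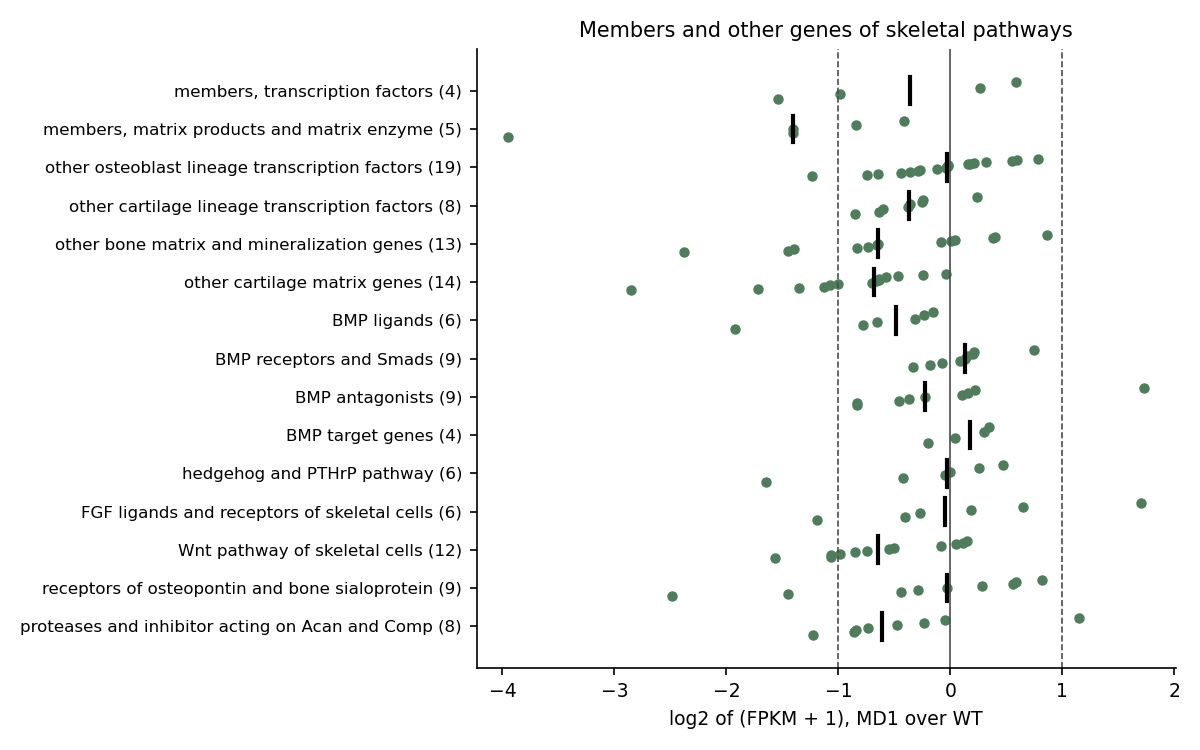
Log2 ratio of (FPKM + 1) in MD1 over WT for each measured gene (points) of the members and of 13 further skeletal lists, with the number of measured genes in brackets, medians as black bars and dashed lines at 2-fold. All 14 cartilage matrix genes lie below 0, whereas osteoblast factors spread around 0 with a median of -0.029.

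Markers of other cell types differed as well. In these bulk cultures, fewer cells of a type and less RNA per cell cannot be told apart. All 8 measured of 12 skeletal muscle markers were at least 2-fold lower, with a summed level of 183.8 FPKM over the list in WT and 52.8 in MD1, and Acta1 at 67.1 and 21.3. Fibroblast markers, which check the labelled cell type, were measured for 13 of 13 and summed to 7326 and 6754 FPKM with a median log2 ratio of 0.0065. Vim was the most abundant at 2790 and 2802 FPKM, Fn1 was 2.54-fold higher, and Col3a1 and Fap stood at 41.6% and 29.6% of WT. Of the tendon markers 5 of 7 were measured and summed to 38.1 and 20.99 FPKM, with Col14a1 at 7.40 and 0.913 FPKM and Tnmd at 8.06 and 8.20, and Kera was listed at 0 in both groups. Adipocyte markers, with 5 of 9 measured, summed to 68.1 and 45.7 FPKM and held 0 genes at least 2-fold different on the log2(FPKM + 1) scale. Pparg (14.4 to 6.93 FPKM) was 2.08-fold lower in plain FPKM, and Cfd was listed at 0 in both groups.

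Macrophage and osteoclast markers were measured for 10 of 14, had 0 genes at least 2-fold different on the log2(FPKM + 1) scale and summed to 51.1 and 49.6 FPKM. In plain FPKM C1qb (7.20 to 3.59 FPKM) was 2.01-fold lower. The osteoclast markers Calcr and Dcstamp were listed at 0 in WT and at 0.0109 and 0.00601 FPKM in MD1. Endothelial markers (4 of 8 measured) summed to 14.6 and 17.6 FPKM, and epithelial markers (3 of 7) to 72.5 and 81.5. Neural markers (4 of 8) summed to 117.3 and 125.5, and neural crest and glial markers (3 of 7) to 10.6 and 8.13. Krt19 (51.4 and 56.4 FPKM) and Nes (82.5 and 65.6) made up most of the epithelial and neural sums. In WT Pecam1, Epcam and Elavl3 had 0.0758, 0.182 and 0.0126 FPKM, so the sums do not show that these cell types were present. At least 2-fold different on the log2(FPKM + 1) scale in these 4 lists were Map2 (6.44 to 2.05 FPKM) and Stmn2 (9.62 to 24.8). The endothelial genes Flt1 (4.32 to 9.59 FPKM) and Emcn (4.12 to 1.58) were over 2-fold different in plain FPKM and just short of it on that scale. All 12 proliferation genes were higher (median 0.81), Mki67 by 2.08-fold, with sums of 303.3 and 547.1 FPKM. The part of muscle markers and of proliferation in the differences of the bone and cartilage genes was not tested.

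**Figure D5:**
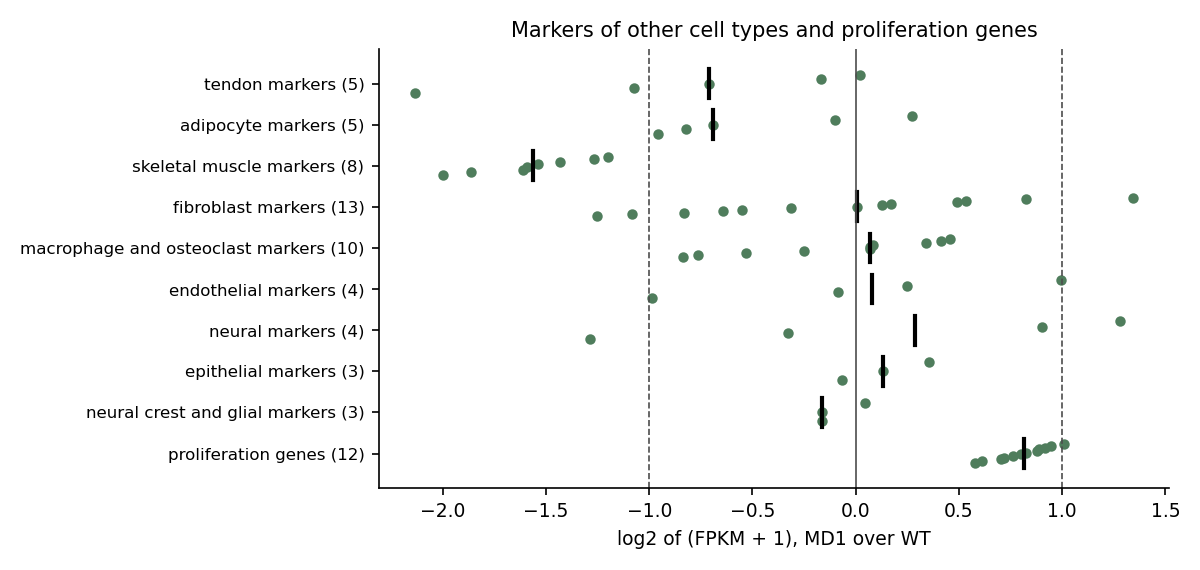
Log2 ratio of (FPKM + 1) in MD1 over WT for measured markers of other cell types and for proliferation genes (points), with the number of measured genes in brackets, medians as black bars and dashed lines at 2-fold. All 8 muscle markers lie below -1 and all 12 proliferation genes above 0, while the fibroblast median is 0.0065.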

How the data were processed

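Group means of FPKM and counts of allele-specific reads were read from 1 deposited table. Per the file header the authors averaged FPKM over the 2 libraries of each group. The submitters' processing notes list Cufflinks 2.2.1, Cuffdiff and the build mm9 without saying what each was used for. Which aligner and annotation were used is not stated in those notes. Per the file header, counts of allele-specific reads were deposited per library, and they were used here for depth only. Within each group the 2 libraries' counts differed far beyond sampling noise (chi-square per degree of freedom 95.8 in WT and 83.8 in MD1, over genes with 20 or more reads).

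The planned limma test needed values per library and was not run. Ratios were computed with Python 3.11.15 and pandas 2.3.3 as log2 of (FPKM + 1), and the computation was tested on simulated data. Table starts were raised by 1 to print 1-based mm9 coordinates. Named were Smchd1, the members, their nearest 2 genes on each side that are discussed, and in each list the 2 most abundant genes and those at least 2-fold different, with further genes chosen after their values were seen where they explain a list. A gene that this rule names is not reported here. The members and lists were chosen with earlier results of these data known. Alternatives were other pseudocounts, FPKM minimums and scalings. With 1 value per group, no genes could be ranked by likeness of pattern.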

Additional observations from a re-analysis of the deposited data

How the results depend on the processing

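No paired analysis was possible because FPKM was given as 1 mean per group, and leaving out a library could not be run for the same reason. The signs of the 9 measured members held under each alternative that kept them: pseudocounts of 0.1 and 0.01, no FPKM minimum, a minimum of 5, quantile normalization and an autosomal median set to 0. The number of members at least 2-fold lower was 4 to 5 under these, except 1 with a minimum of 5 FPKM, which left 4 members (Runx2, Sox9, Ibsp and Spp1), and 0 were at least 2-fold higher. With a pseudocount of 0.1 the medians were -1.89 for the members, -0.80 for the factors and -2.41 for the matrix genes, and matrix minus factors was -1.61. With 0.01 they were -2.03, -0.87 and -2.62, and -1.76, and with no pseudocount, an alternative chosen after seeing the data, -2.04, -0.87 and -2.65, and -1.78. Without a minimum, which admits Sp7, the members had -0.92 and the factors -0.84, and the difference narrowed to -0.56. With a minimum of 5 FPKM the medians were -0.29, 0.42 and -2.40, and the difference -2.82, so the direction of the factor median rests on the lower factors Dlx5 and Dlx6 being kept. With quantile normalization they were -0.91, -0.31 and -1.33, and -1.01. List medians changed sign for the hedgehog (0.25), FGF (0.42) and macrophage (-0.34) lists with a minimum of 5 FPKM, for the hedgehog list also with quantile normalization, and for the neural (-0.18) and epithelial (-0.024) lists without a minimum. The bone matrix median was -0.085 without a minimum and -0.041 with a minimum of 5 FPKM. With a pseudocount of 0.1 the Wnt list had 6 genes at least 2-fold lower in place of 3 and the BMP ligands 2 in place of 1. With a minimum of 5 FPKM the cartilage matrix list had 3 in place of 6, the bone matrix list 1 in place of 3 and the muscle markers 4 in place of 8, since fewer genes were counted. Over all genes 494 were at least 2-fold lower and 259 higher with a pseudocount of 0.1, against 320 and 158. With a minimum of 5 FPKM these counts were 191 and 94. The unknown depth behind FPKM limits the lowest values, such as Ibsp in MD1.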
